A study of Rattus norvegicus with 4 samples.

Results

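The genes described here encode 8 receptors through which growth factors and hormones reach the β-cell: Kit, Met, Prlr, Ghr, Egfr, Erbb2, Erbb3 and Fgfr1. They were taken by gene name from a table of 15172 genes, which lists all 8, and 7 of them were among the 13953 genes with enough reads to be tested. The cells were INS-1 832/13, a clonal rat insulinoma line that secretes insulin in response to glucose and carries a human insulin gene in addition to its own. They were transfected for 36 h with a non-targeting siRNA (siScramble, control, 2 samples) or with a pool of siRNAs against Tbk1 (siTbk1, 2 samples), and stranded libraries of polyadenylated RNA were made from 200 ng of total RNA. The samples carry the numbers 2 and 3 in each group, the column labels place all 4 on the same flow cell and lane, and nothing in the labels says whether the samples of a group came from separate cultures, so that p-values measure the spread between these samples only.

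Receptors of this kind fall into a pair of mechanisms. Kit (the receptor of stem cell factor), Met (of hepatocyte growth factor), Egfr, Erbb2 and Erbb3 (of the epidermal growth factor family) and Fgfr1 (of fibroblast growth factors) are receptor tyrosine kinases, which phosphorylate themselves on pairing and feed the Ras-MAPK and PI3K-Akt pathways. Prlr (of prolactin) and Ghr (of growth hormone) have no kinase of their own and signal through the bound kinase JAK2 to STAT5; both are known for driving β-cell expansion, prolactin above all in pregnancy. Stem cell factor and hepatocyte growth factor are likewise known as β-cell mitogens, and the study asked which genes of proliferation move when Tbk1 is silenced.

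The siRNA had reached its target. Tbk1 stood at 53.7 and 52.5 CPM (counts per 1000000 counts, on library sizes scaled by the TMM method) in the siScramble samples and at 11.8 and 13.3 CPM in the siTbk1 samples, a log2 fold change of −2.08 (edgeR quasi-likelihood test, Benjamini-Hochberg adjusted p = 3.7e-08). Total counts lay between 38428926 and 47759013 per sample, so that 3 counts, taken as the lower limit of detection, correspond to 0.0625 to 0.0795 CPM. The 8 β-cell markers examined (Ins1, Ins2, Iapp, Pdx1, Nkx6-1, Neurod1, Slc2a2 and Chga) were all present, at a summed 18590 and 19480 CPM in control and 15900 and 14240 CPM in siTbk1-treated cells. Ins1 dominates this sum, at a mean of 10740 CPM in control and 6882 CPM in siTbk1-treated cells, and the markers did not move together. The log2 fold change was −0.67 for Ins2, −0.64 for Ins1, −0.37 for Slc2a2 and −0.24 for Pdx1. It was −0.01 for Chga, 0.07 for Neurod1, 0.23 for Nkx6-1 and 0.38 for Iapp. Of the markers of other cell types that were analysed, Gcg (glucagon) was high in this line, at 1389 and 1313 CPM in control and 815 and 878 CPM in siTbk1-treated cells, Kdr and Pdgfra lay between 2.76 and 9.32 CPM, and Cd68 and Sox9 lay under 0.4 CPM in every sample. The markers fixed for mast cells, which also carry Kit, and for delta, PP and acinar cells were not among the 15172 listed genes. Neither were the other markers fixed for macrophages, endothelium, fibroblasts and duct, so none of these could be analysed. In such bulk libraries, a change in the number of cells that hold an mRNA and a change in its amount per cell cannot be told apart.

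The stretches of DNA just before the starts of Kit, Prlr and Ghr are shown because these receptors are, as given below, the well-covered ones whose mRNA differed between the groups. The sequences are those of RefSeq on build GRCr8, a later build than the rn6 named for the count table, and each is the 250 bases up to the annotated start, 5′ to 3′ on the strand of the gene. RefSeq gave such a window for 6 of the 8 receptors and 2 starts for Prlr. Capitals mark matches on either strand to CANNTG (the E-box, read by basic helix-loop-helix factors such as MITF), GGGCGG (the GC box, read by Sp1) and TTCNNNGAA (the form of site read by STAT5).
Kit, chr14:32978813-32979062, minus strand: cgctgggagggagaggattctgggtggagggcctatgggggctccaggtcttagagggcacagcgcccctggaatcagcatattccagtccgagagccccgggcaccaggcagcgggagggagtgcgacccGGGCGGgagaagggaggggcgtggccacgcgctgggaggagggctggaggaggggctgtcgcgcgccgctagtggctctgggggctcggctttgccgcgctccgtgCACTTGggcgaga
Prlr, first start, chr2:60861515-60861764, plus strand: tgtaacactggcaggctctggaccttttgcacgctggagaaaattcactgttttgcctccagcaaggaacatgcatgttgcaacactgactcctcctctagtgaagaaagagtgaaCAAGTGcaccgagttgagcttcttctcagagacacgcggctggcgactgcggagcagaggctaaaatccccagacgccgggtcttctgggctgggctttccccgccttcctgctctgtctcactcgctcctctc
Prlr, second start, chr2:60909409-60909658, plus strand: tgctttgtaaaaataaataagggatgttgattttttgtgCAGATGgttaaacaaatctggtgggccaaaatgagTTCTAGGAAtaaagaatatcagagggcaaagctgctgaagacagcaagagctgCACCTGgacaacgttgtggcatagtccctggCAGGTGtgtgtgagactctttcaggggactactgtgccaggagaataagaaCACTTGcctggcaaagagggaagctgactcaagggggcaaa
Ghr, chr2:54432076-54432325, minus strand: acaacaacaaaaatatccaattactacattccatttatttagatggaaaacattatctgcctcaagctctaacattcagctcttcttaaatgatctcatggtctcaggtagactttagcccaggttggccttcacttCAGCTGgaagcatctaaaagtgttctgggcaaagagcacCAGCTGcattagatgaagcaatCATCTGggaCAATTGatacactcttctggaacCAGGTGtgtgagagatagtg
The Kit window was 70.8% G and C, against a median of 51.2% over all 33469 windows, and held 1 GC box that began 119 bases before the start and 1 E-box (CACTTG) that began 13 bases before it. The Ghr window was 40.8% G and C and held 5 E-boxes and no GC box. The windows of Prlr held 1 and 4 E-boxes, and the second also held the only STAT5-type match among the receptors, TTCTAGGAA, which began 176 bases before that start. Of all windows, 65.5% hold CANNTG, 30.5% hold GGGCGG and 7.67% hold TTCNNNGAA. The E-box forms CACGTG and CATGTG, which MITF prefers, and the cAMP response element TGACGTCA were matched in none of the receptor windows, against 5.59%, 12.1% and 1.59% of all windows. A match is a run of letters and not a bound site, and the data hold no measurement of binding.

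Kit doubled, Erbb3 rose by a like amount from a level of few reads, Prlr and Ghr rose by 24.1% and 21.6%, and Met, Egfr and Fgfr1 did not pass the test. Of the 7 receptors tested, 2 (Kit and Erbb3) passed as higher (adjusted p under 0.05 and at least 1.5-fold, hereafter called), where the share over all tested genes was 4.81%, and 0 passed as lower, where it was 6.18%. Without the fold limit, 4 were past the threshold and higher (24.4% of all tested genes) and 0 were lower (24.8%). At a fitted fold change of 2 or more there were again 2, Kit and Erbb3, against 1.69% of all tested genes. The value of Erbb3 rests on 15 to 40 counts per sample with a 95% interval from 1.34-fold to 3.57-fold, and its call was lost without siScramble replicate 3, without siTbk1 replicate 3 (where its log2 fold change was 0.936), with DESeq2 and with glmTreat, so whether Kit is alone among the receptors in doubling could not be settled at this depth. Both siTbk1 samples lay above both siScramble samples for 6 of the 7, which holds for 38.7% of all tested genes. The median log2 fold change was 0.282 over the 7 receptors and 0.007 over all tested genes.

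**Figure D1:**
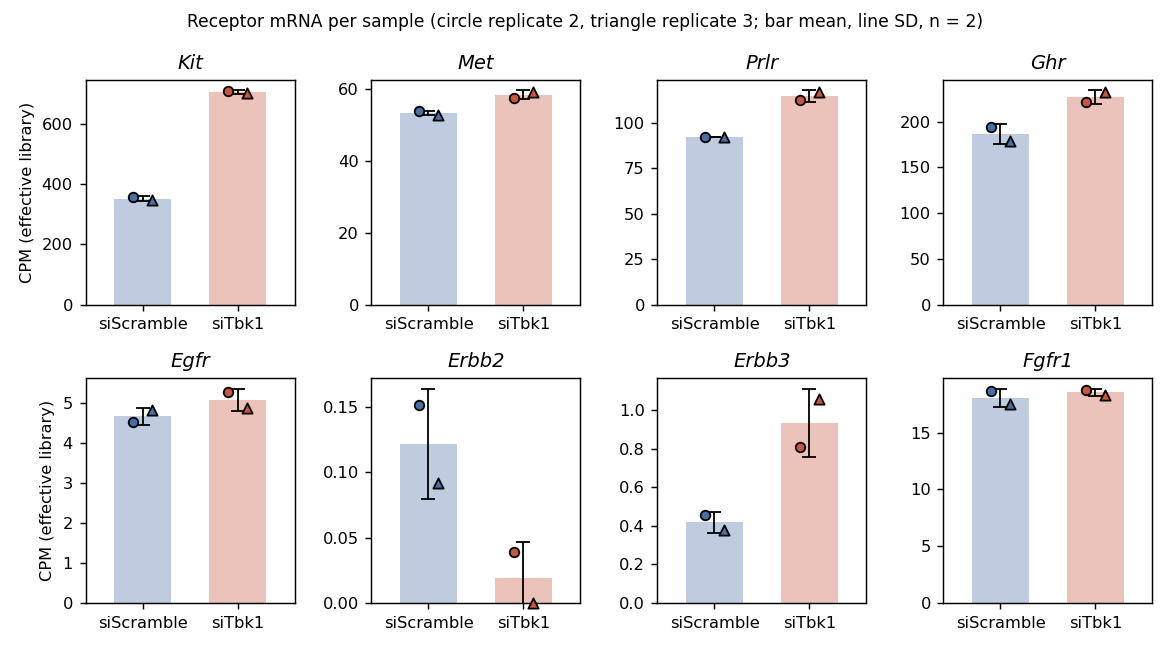
CPM of the 8 receptors in each of the 4 samples, on linear axes that start at 0 and differ between panels (circle replicate 2, triangle replicate 3, bar the mean, line the SD, n = 2, its lower end cut at 0 for Erbb2). The siTbk1 samples of Kit stand at 709 and 701 CPM over siScramble samples at 357 and 346 CPM, while Fgfr1 overlaps between the groups.

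Kit is listed on chromosome 14 from 35072108 to 35149611 (rn6, minus strand), a genomic span of 77.5 kb. It stood at 357 and 346 CPM in the siScramble samples and at 709 and 701 CPM in the siTbk1 samples. The groups were far apart relative to the spread within them, with a mean normalised count (CPM rescaled to the mean library) of 15157 ± 347 for siScramble and 30374 ± 245 for siTbk1 (SD, n = 2). On the log2 scale Kit rose by 1.00 with a standard error of 0.0507 (edgeR, adjusted p = 2.1e-07), or 2.004-fold with a 95% interval from 1.86 to 2.16. Taken by replicate number, the log2 ratio was 0.988 for number 2 and 1.02 for number 3. Kit was called in all 20 alternative analyses, although its fold change was just under 2 in several of them, at a log2 fold change of 0.955 with library size alone as the scaling and 0.903 with a correction for genomic span. Its counts were not whole numbers, and the reason was not tested.

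Few genes as abundant as Kit changed as much. Of the 219 tested genes with a mean CPM at or above that of Kit, 4 were called higher and 4 lower, and 2 had a fitted fold change of at least 1.9, which were Kit and Scg2, a secretory granule gene named after its values were seen (2.14% of all tested genes reached 1.9-fold). Shares and ratios within a library need no scaling between libraries. Kit made up 49.5% and 49.9% of the summed counts of the 8 receptors in the siScramble samples and 63.0% and 61.8% in the siTbk1 samples. For each Met count there were 6.63 and 6.54 Kit counts in control and 12.3 and 11.8 in siTbk1-treated cells, and for each Fgfr1 count there were 19.2 and 19.8 against 37.8 and 38.3. The ratio to Ghr moved less, from 1.84 and 1.93 to 3.20 and 3.02, and the ratio to the few counts of Erbb3 overlapped between the groups, at 780 and 914 in control and 877 and 661 in siTbk1-treated cells. These ratios compare libraries and not the levels of different genes, since counts also depend on transcript length.

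**Figure D2:**
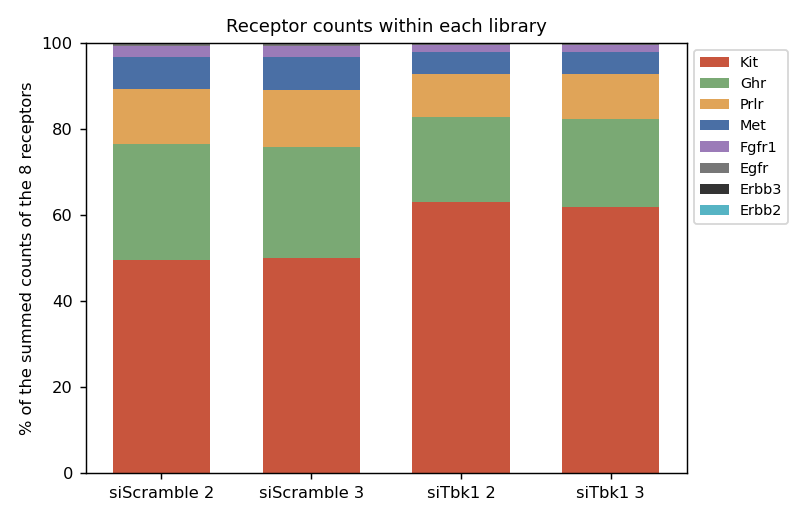
Share of each receptor in the summed counts of the 8 receptors (%), 1 stacked bar per library. Kit takes 49.5% and 49.9% in the siScramble libraries and 63.0% and 61.8% in the siTbk1 libraries, and the shares of Egfr, Erbb3 and Erbb2 are too small to be seen.

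**Figure D3:**
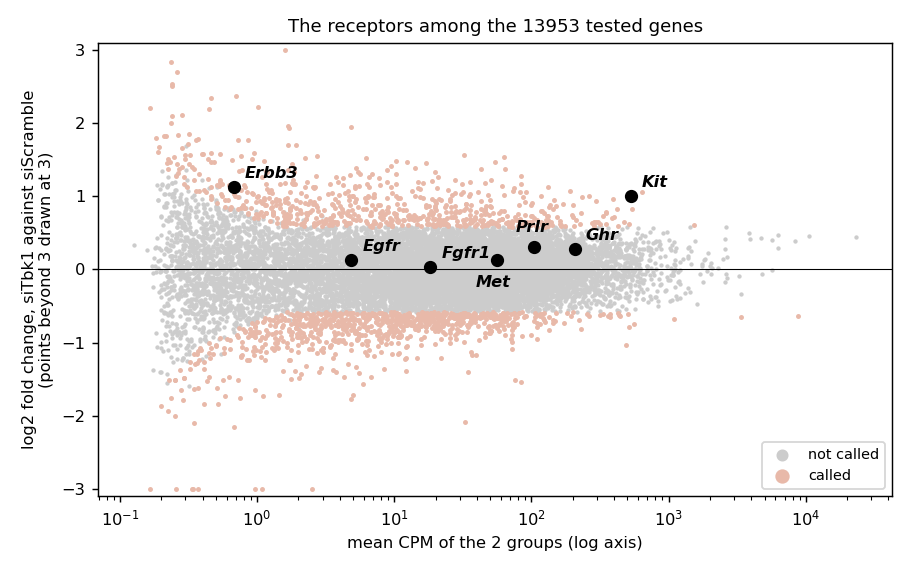
Mean CPM (log axis) against log2 fold change for all 13953 tested genes, with called genes in colour and the 7 tested receptors as labelled black points. Kit lies at the upper edge for genes of its level and Erbb3 lies in the wide scatter of genes near 1 CPM.

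The genes whose pattern over the 4 samples was closest to that of Kit were Rcan2, Prim2, Actr2, Alg2 and Nrp1, out of 7944 genes with a mean of at least 4 on the log2 CPM scale. The root mean square difference from Kit of the centred log2 CPM was 0.0169 for Rcan2 and at most 0.0261 for the others, over 4 samples. Because the genes were chosen by this measure, fold changes near that of Kit follow from the choice. Rcan2, a regulator of calcineurin, stood at 42.5 and 41.4 CPM in control and 83.9 and 85.6 CPM in siTbk1-treated cells. Nrp1, a co-receptor for semaphorins and vascular endothelial growth factor, stood at 27.0 and 26.0 against 55.6 and 54.7 CPM. Prim2 (a primase subunit), Actr2 (a subunit of the actin-nucleating Arp2/3 complex) and Alg2 (a mannosyltransferase) had log2 fold changes of 0.97, 0.96 and 1.00.

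Prlr and Ghr both rose, by less than Kit. Lepr, the leptin receptor and a further hormone receptor of the cytokine family, named after its values were seen, stood at 0.847 and 0.139 CPM in control and 0.572 and 1.22 CPM in siTbk1-treated cells, with overlapping groups (edgeR, adjusted p = 0.29). Prlr, on chromosome 2 from 60131776 to 60325693 (plus strand, 193.9 kb), stood at 92.5 and 92.5 CPM in the siScramble samples and at 113 and 117 CPM in the siTbk1 samples, so that the groups did not overlap. Prlr rose by 0.31 on the log2 scale with a standard error of 0.0542 (edgeR, adjusted p = 0.00054), or 1.24-fold with a 95% interval from 1.14 to 1.35. Ghr, also on chromosome 2, from 53150370 to 53413639 (minus strand, 263.3 kb), stood at 194 and 179 CPM in control and at 222 and 232 CPM in siTbk1-treated cells, again with no overlap but with a wider spread between the control samples. Ghr rose by 0.28 on the log2 scale with a standard error of 0.0571 (edgeR, adjusted p = 0.0015), or 1.22-fold with a 95% interval from 1.12 to 1.33. Both increases were past the test and short of the 1.5-fold limit, which lay outside both intervals. The intervals of Prlr and Ghr overlapped each other and neither reached that of Kit. As for Kit, the counts of Prlr and Ghr were not whole numbers, and the reason was not tested.

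The span of the gene moved with these values. With the tested genes divided by genomic span into 5 groups of about equal size, the median of the log2 fold changes was −0.092 in the shortest group (up to 5.07 kb) and 0.121 in the longest (from 65.5 kb), and 5 of the 7 tested receptors, Kit, Met, Prlr, Ghr and Egfr, are in the longest group. After a correction for this trend, the log2 fold change was 0.194 for Prlr (adjusted p = 0.012, edgeR) and 0.158 for Ghr (adjusted p = 0.046, edgeR), against 0.903 for Kit and 1.14 for Erbb3. With the replicate number as a block in addition, the adjusted p of Ghr was 0.097 and that of Prlr was 0.045 (edgeR). What part of the change of these receptors goes with span was not tested beyond this correction.

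Met, on chromosome 4 from 44774741 to 44852666 (plus strand, 77.9 kb), stood at 53.9 and 52.9 CPM in the siScramble samples and at 57.7 and 59.4 CPM in the siTbk1 samples. The groups did not overlap, yet the difference was small and missed the adjusted threshold, with a log2 fold change of 0.13 (95% interval 0.005 to 0.259, adjusted p = 0.080, edgeR) that was 0.032 after the span correction. Egfr, on chromosome 14 from 99919485 to 100098797, stood at 4.52 and 4.82 CPM against 5.27 and 4.88 CPM. Its log2 fold change was 0.12 (95% interval −0.152 to 0.401, adjusted p = 0.44, edgeR), and it was 0.008 after the span correction. Fgfr1, on chromosome 16 from 71266248 to 71319450, stood at 18.6 and 17.5 CPM against 18.8 and 18.3 CPM, with overlapping groups. Its log2 fold change was 0.04 (95% interval −0.133 to 0.205, adjusted p = 0.73, edgeR). As fold changes, the 95% intervals ran from 1.003 to 1.197 for Met, from 0.900 to 1.32 for Egfr and from 0.912 to 1.153 for Fgfr1, so that a 1.5-fold change in either direction lay outside all of them.

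**Figure D4:**
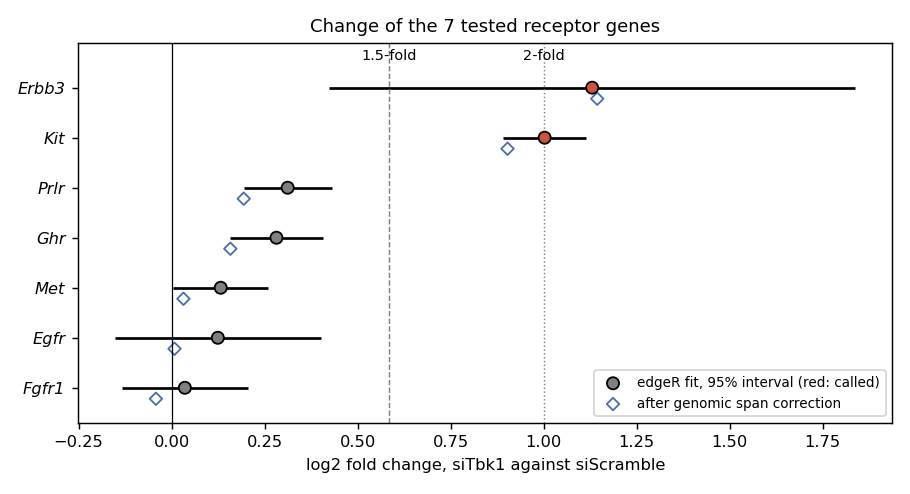
Log2 fold change of the 7 tested receptors (siTbk1 against siScramble), with 95% intervals from edgeR (2 samples per group, red where called) and, as open diamonds, the value after the correction for genomic span; broken lines mark 1.5-fold and 2-fold. The interval of Kit, 0.892 to 1.11, lies to the right of those of Prlr, Ghr, Met, Egfr and Fgfr1, and that of Erbb3 reaches from 0.423 to 1.84.

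The pair of low receptors that signal together, Erbb3 and Erbb2, were measured from few reads. Erbb3 has a weak kinase and needs a partner, for which Erbb2, a receptor with no known ligand of its own, is the usual one. Erbb3, on chromosome 7 from 2989340 to 3010351 (minus strand, 21.0 kb), had 22 and 15 counts in the siScramble samples and 38 and 40 in the siTbk1 samples, or 0.458 and 0.379 against 0.808 and 1.06 CPM. The groups did not overlap and Erbb3 rose by 1.13 on the log2 scale with a standard error of 0.325 (edgeR, adjusted p = 0.012), or 2.19-fold with a 95% interval from 1.34 to 3.57, wide enough to hold both the change of Kit and one under 1.5-fold. The call was lost without siScramble replicate 3 (log2 fold change 1.01, adjusted p = 0.065, edgeR) and without siTbk1 replicate 3 (0.936, adjusted p = 0.095, edgeR). DESeq2 gave Erbb3 an adjusted p of 0.084, and a test against a 1.5-fold change (glmTreat of edgeR) gave 0.44.

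Erbb2, on chromosome 10 from 86367596 to 86391729, had 7.26 and 3.63 counts in the siScramble samples and 1.81 and 0 in the siTbk1 samples. Why these estimated counts are not whole was not tested. Erbb2 was left out of the test by the filter on low counts. Rounded and summed, 11 counts in control stand against 2 in siTbk1-treated cells, a ratio of 0.188. The exact 95% interval, 0.0202 to 0.861, covers counting error only and treats each rounded count as a read. Within rounding, both control values are whole multiples of the siTbk1 value of 1.81, so fewer reads may stand behind them. The interval may then be too narrow, and no conclusion is drawn from it. Tested without that filter, Erbb2 had an adjusted p of 0.092 (edgeR), also on rounded counts. The siTbk1 values are under the limit of 3 counts per library.

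Around the receptors, 152 genes of the same pathways had been listed as ligands, related receptors, downstream proteins, inhibitors, targets or factors known to act on Kit, and 115 of them were tested. Of these, 7 were called higher, or 6.09% where the share over all tested genes was 4.81%, and 7 lower, or 6.09% where it was 6.18%, close to the background shares, with a median log2 fold change of 0.005.

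Among the ligands, 1 of 9 tested genes was called higher and 1 lower (11.1% each), against 4.81% and 6.18% of all tested genes. Fgf1, a ligand of Fgfr1 and its relatives, rose from 11.6 and 10.7 CPM to 27.0 and 29.7 CPM, a log2 fold change of 1.34 (adjusted p = 6.1e-07, edgeR), where Erbb3 had 1.13 and Kit 1.00. Nrg2, a neuregulin of the kind that binds Erbb3 and Erbb4, fell from 1.69 and 2.10 CPM to 1.04 and 0.874 CPM (log2 fold change −0.96, adjusted p = 0.0051, edgeR). Kitlg, the stem cell factor that binds Kit, stood at 9.70 and 9.92 CPM in control and 9.12 and 8.74 CPM in siTbk1-treated cells and was not past the test (log2 fold change −0.13, 95% interval −0.345 to 0.077, adjusted p = 0.28, edgeR). The ligands of Met, Prlr and Ghr (Hgf, Prl and Gh1) were not among the 15172 listed genes, so they could not be analysed.

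Among 16 related receptors and co-receptors, 2 (12.5%) were called higher and 1 (6.25%) lower, with a median log2 fold change of 0.038. Over all tested genes the shares were 4.81% and 6.18%. Kdr, a receptor of vascular endothelial growth factor, fell from 8.47 and 9.32 CPM to 2.76 and 3.23 CPM (log2 fold change −1.57, adjusted p = 4.5e-06, edgeR). Mertk, a receptor of the growth-arrest ligand Gas6, rose from 38.6 and 37.6 CPM to 57.1 and 59.1 CPM (log2 fold change 0.61), and Epha2, an ephrin receptor, rose from 5.02 and 4.90 CPM to 8.55 and 6.78 CPM (0.63). Both of these lay close to the 1.5-fold limit: Mertk fell short of it with library size alone (0.56) and after the span correction (0.50), and Epha2 without siTbk1 replicate 2 (0.44).

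Downstream of the receptors, 2 of 37 adaptors, kinases and STATs were called higher and 2 lower (5.41% each), with a median log2 fold change of 0.005. These shares were near the 4.81% and 6.18% of all tested genes. Nras, a Ras protein of the MAPK pathway, rose from 44.95 and 44.56 CPM to 69.0 and 73.7 CPM (log2 fold change 0.67, adjusted p = 7.9e-06, edgeR). Gab1, a docking protein used by Met and Egfr, went from 1.42 and 1.11 CPM to 1.79 and 2.12 CPM (0.61, adjusted p = 0.038, edgeR), a call that was lost in 8 of 20 alternatives, those without siScramble replicate 3 (0.455) and siTbk1 replicate 3 (0.489) among them. Grb10, an adaptor that restrains receptor signalling, fell from 2.67 and 2.80 CPM to 1.15 and 1.35 CPM (log2 fold change −1.13). Frs3, an adaptor of the fibroblast growth factor receptors, fell from 3.08 and 4.59 CPM to 2.25 and 2.38 CPM (−0.72), a call that was lost without siScramble replicate 3 (−0.413, adjusted p = 0.14, edgeR).

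On the route from Prlr and Ghr, Jak2 stood at 74.9 and 69.8 CPM against 69.1 and 71.5 CPM and was not past the test (log2 fold change −0.04, adjusted p = 0.60, edgeR). Stat5a was not past it either (−0.08, adjusted p = 0.55, edgeR). Stat5b was lower, at 25.5 and 26.0 CPM in control and 16.9 and 18.1 CPM in siTbk1-treated cells, with a log2 fold change of −0.56 (adjusted p = 9.4e-05, edgeR), just short of the 1.5-fold limit. It was past that limit with library size alone (−0.606), after the span correction with or without the replicate block (−0.652) and without siTbk1 replicate 3 (−0.606). The counts of Stat5a and Stat5b, which are close paralogs, are not whole numbers and are less certain.

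Of 32 inhibitors, 0 were called higher and 2 lower, or 6.25% where the share over all tested genes was 6.18%. Without the fold limit 7 were higher and 10 lower by edgeR's test at an adjusted p under 0.05, where the shares over all tested genes were 24.4% and 24.8%. Both called genes are feedback inhibitors of JAK-STAT signalling whose mRNA STATs are known to induce: Cish fell from 34.4 and 39.5 CPM to 24.9 and 22.7 CPM (log2 fold change −0.63, adjusted p = 7.9e-05, edgeR), and Socs3 from 2.77 and 2.50 CPM to 1.28 and 1.54 CPM (−0.92, adjusted p = 0.0020, edgeR). Cish was short of the 1.5-fold limit after the span correction (−0.532), without siScramble replicate 3 (−0.531) and without siTbk1 replicate 3 (−0.569). Socs2, on both the inhibitor and the target list and named after its values were seen, was not past the test (log2 fold change 0.015, adjusted p = 0.90, edgeR).

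Of 20 targets, 1 (5%) was called higher and 2 (10%), Cish among them, lower, against 4.81% and 6.18% of all tested genes. Tph1, which makes serotonin and is known to be induced by prolactin in β-cells, rose from 1.94 and 1.51 CPM to 3.17 and 2.76 CPM (log2 fold change 0.77, adjusted p = 0.0049, edgeR). Cish, another gene known to follow STAT5, moved the opposite way. Fos, an immediate early gene of the MAPK pathway, fell from 1.21 and 1.72 CPM to 0.489 and 0.424 CPM (log2 fold change −1.65, adjusted p = 0.00075, edgeR), on 16 to 68 counts per sample. Without the fold limit 4 targets were higher and 7 lower (24.4% and 24.8% of all tested genes), and the list's median log2 fold change was −0.059. Besides the genes above, and named after their values were seen, Dusp6 (0.47), Etv1 (0.34) and Spry4 (0.24) were higher. Ier3 (−0.56), Egr1 (−0.37), Myc (−0.37), Men1 (−0.30) and Birc5 (−0.25) were lower.

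Of the 7 tested factors known to act on Kit in other cells, 1 was called higher and 0 lower. The shares over all tested genes were 4.81% and 6.18%. Without the fold limit 4 were higher and 1 lower, where those shares were 24.4% and 24.8%. The median log2 fold change was 0.298, against 0.007 over all tested genes. The gene called higher was Mitf, known as an activator of Kit in mast cells and melanocytes. Mitf stood at 4.06 and 4.57 CPM in control and 8.01 and 8.32 CPM in siTbk1-treated cells (log2 fold change 0.92, adjusted p = 7.8e-05, edgeR). Whether it acts on Kit here was not tested. Its groups did not overlap, and at 252.8 kb it is longer than Kit, with a log2 fold change of 0.80 after the span correction.

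**Figure D5:**
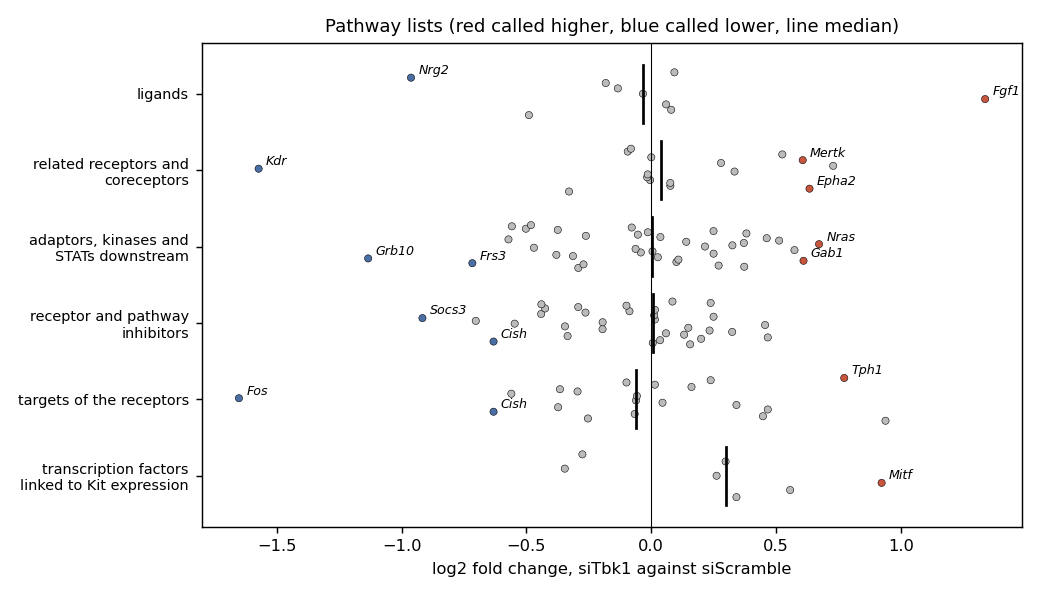
Log2 fold change (siTbk1 against siScramble) of every tested gene of the 6 pathway lists, 1 point per gene, red where called higher, blue where called lower, with the median of each list as a black line. Called genes lie on both sides of 0 in most lists, and Cish appears in 2 of them.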

How the data were processed

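RNA sequencing data of INS-1 832/13 cells treated with siScramble (2 samples) or siTbk1 (2 samples) were analysed. For each gene the authors deposited an estimated count that was not scaled between samples, and 21.1% to 22.3% of these values per sample were not whole numbers (tolerance 0.01). The submitters' processing notes name STAR 2.6.1d, Partek and build rn6. The strand setting of the counting and the annotation are not given in the sources used here.

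Counts were rounded, genes with low counts removed with filterByExpr (edgeR 4.0.16, minimum count 10), and library sizes scaled with TMM factors. All 13953 remaining genes were fitted with edgeR's quasi-likelihood test, with treatment as the only factor, and adjusted by the Benjamini-Hochberg method. The limits for a call, 0.05 for the adjusted p and 1.5 for the fold change, are those of the study. Standard errors were derived from the F statistics, and 95% intervals from the t distribution of that fit. R 4.3.3, limma 3.58.1, DESeq2 1.42.0, Python 3.11.15 and matplotlib 3.10.9 were used. The fits were tested on simulated data.

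The receptors and the pathway lists were chosen with earlier results of these data known, so that their counts are descriptions. Genes named are Tbk1, the 8 receptors, the called genes of each list (at most 8), Kitlg, Hgf, Prl, Gh1, Jak2, Stat5a, Stat5b and the 5 genes most like Kit. The genomic span is the stop minus the start of a gene, introns included. For its correction, each gene's log2 CPM was centred on the gene's mean over the samples. A loess curve (span 0.5) of these centred values on log10 span was fitted in each library and entered as an offset of the fit. Alternatives covered the test, scaling, filter, call limits, replicate block, span correction and leaving out each sample. With 2 samples per group, an exact permutation test of a single gene cannot go below 0.333. Promoter windows are from RefSeq on GRCr8.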

Additional observations from a re-analysis of the deposited data

How the results depend on the processing

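The change of Kit kept its direction and its call in all 20 alternatives, with a log2 fold change between 0.903 and 1.01, or between 0.979 and 1.03 with 1 sample left out. The number of receptors called higher was 1 rather than 2 with DESeq2 and with glmTreat, 4 without a fold limit, and 1 to 2 with 1 sample left out (1 without siScramble replicate 3 or siTbk1 replicate 3); 0 were called lower throughout. For all genes, 671 were called higher and 862 lower, against 3405 and 3459 without a fold limit, 163 and 101 with glmTreat, 205 and 158 at a limit of 2-fold, and 552 to 756 and 574 to 1159 with 1 sample left out (574 without siScramble replicate 3). For the pathway lists, 7 higher and 7 lower became 31 and 33 without a fold limit, 1 and 2 with glmTreat, and 1 and 3 at 2-fold; library size alone gave 12 lower, and leaving out 1 sample gave 6 to 9 higher and 5 to 11 lower (11 without siScramble replicate 2 or siTbk1 replicate 2). Values near 0 changed sign for Fgfr1 (−0.011 with library size alone, −0.042 with the span correction with or without the replicate block, −0.007 to 0.083 with 1 sample left out, negative without siScramble replicate 3) and Jak2 (−0.092 to 0.012 with 1 sample left out, positive without siScramble replicate 2). The causes were not tested. A lone sample left in a group is assumed to vary like the other group.

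Same-numbered samples did not deviate together in their scaled values (Pearson correlation 0.004 and Spearman −0.195 over 13953 genes, −0.386 and −0.430 over the 7945 with a mean log2 CPM of at least 4). Their total counts were alike, at 47443061 (siScramble) and 47759013 (siTbk1) for number 2 and 38811919 and 38428926 for number 3. With 1 difference per group, these values cannot show whether same-numbered samples shared a culture or handling. With the replicate block, 699 genes were called higher and 898 lower, with 2 receptors higher and 0 lower, 7 and 8 pathway genes, and a log2 fold change of 1.00 for Kit; with the block and the span correction these were 682 and 780, 2 and 0, 5 and 7, and 0.903. With crossed numbers, 648 genes were called higher and 872 lower. Depth limits Erbb3 and Erbb2, and the number of samples limits every interval.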
